A study of Mus musculus with 29 samples.

Results

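The respiratory chain subunits encoded in the nucleus were described across RNA-seq libraries of mouse megakaryocyte-erythrocyte progenitors (MEPs), the marrow precursors of the platelet and red cell lines. The members were chosen by symbol: genes named Ndufa, Ndufb, Ndufc, Ndufs, Ndufv, Sdha to Sdhd, Uqcr, Cox4 to Cox8 or Atp5 with a mean of at least 5 CPM (a gene's counts divided by the library's total in M) over all 29 libraries, without assembly factors and pseudogenes. Of 96 genes with such symbols, 77 were members, out of 18834 genes in the files. They comprised 37 genes of complex I, 4 of complex II, 8 of complex III, 12 of complex IV and 16 of complex V. All 77 passed the filter on low counts.

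The chain passes electrons from NADH and succinate to oxygen in the inner mitochondrial membrane and pumps protons as it does so. Complex I (NADH dehydrogenase) and complex II (succinate dehydrogenase) feed electrons to ubiquinone. Complex III (the cytochrome bc1 complex) passes them to cytochrome c, complex IV (cytochrome c oxidase) passes them to oxygen, and complex V (ATP synthase) makes ATP from the proton gradient. Complexes I, III, IV and V also hold subunits encoded by mitochondrial DNA. Erythroid precursors use mitochondria for heme synthesis and lose them as red cells mature.

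The MEPs came from mice of 6 genotypes, and all of them carried the Cre transgene SclCre (also spelled ScleCre). JAK2V617F, called V617F here, is a change in the kinase JAK2 that keeps it active and drives myeloproliferative neoplasms. Ezh2 encodes the enzyme of the complex PRC2 that methylates histone H3 and keeps genes silent. With V617F there were 6 Ezh2 -/- libraries, 6 Ezh2 +/- libraries and 4 Ezh2 +/+ libraries. Without V617F there were 4 Ezh2 -/- libraries, 4 Ezh2 +/- libraries and 5 Ezh2 +/+ libraries. The 12 V617F libraries with Ezh2 -/- or Ezh2 +/- were all female, and each other group held both sexes. The cell type and time in which SclCre acts, the form of the V617F allele and the age of the mice were not given in the sources used here. Replicates are numbered in the labels without naming animals, so p-values measure the spread between these libraries, which may be partly technical.

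Libraries held 31.6 to 59.4 M counts. Ezh2 RNA followed the Ezh2 -/- and Ezh2 +/+ labels. It averaged 54.97 ± 3.10 normalised CPM in V617F Ezh2 -/- MEPs and 288.7 ± 31.2 in V617F Ezh2 +/+ MEPs (SD, n = 6 and 4). Without V617F it averaged 73.4 ± 5.89 in Ezh2 -/- MEPs and 302.9 ± 20 in Ezh2 +/+ MEPs (SD, n = 4 and 5). Jak2 averaged 236.7 ± 6.65 normalised CPM in V617F Ezh2 -/- MEPs and 177.1 ± 9.65 in Ezh2 -/- MEPs (SD, n = 6 and 4); gene counts do not show the V617F base itself. The 9 MEP markers summed to 2133 to 2582 CPM in every library, so the labelled cell type's defining genes were present throughout. Markers of other blood cells differed between groups. The 9 megakaryocyte markers summed to 586.3 to 936.6 CPM in V617F Ezh2 -/- libraries, to 209 to 1046 CPM in V617F Ezh2 +/+ libraries, to 65.4 to 103.3 CPM in Ezh2 -/- libraries and to 78.8 to 348.1 CPM in Ezh2 +/+ libraries. The 10 granulocyte markers summed to 130.8 to 1410 CPM, 637.1 to 1225 CPM, 20.4 to 85.3 CPM and 47.3 to 334.9 CPM in the same 4 groups. The 8 erythroblast markers summed to 898.5 to 1161 CPM, 806.5 to 1167 CPM, 1246 to 1433 CPM and 1178 to 1316 CPM there, lower with V617F. None of the tested megakaryocyte (8 of 9), granulocyte or stem cell markers was at 0 CPM in a library. The megakaryocyte marker removed by the filter on low counts was not checked for this. Ezh2 +/+ replicate 5 and Ezh2 +/- replicates 2 and 5 stood apart among the libraries without V617F, with granulocyte sums of 334.9, 326.8 and 209.3 CPM and stem cell sums of 114.9, 73.7 and 93.9 CPM, and main counts are also given without them where that changes them. In bulk RNA, fewer cells of a type and less RNA per cell cannot be told apart.

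Respiratory chain RNA made up 1.27 ± 0.035% of all counts in V617F Ezh2 -/- libraries (SD, n = 6), 1.34 ± 0.093% in V617F Ezh2 +/- libraries (n = 6) and 1.41 ± 0.06% in V617F Ezh2 +/+ libraries (n = 4). The share was 1.45 ± 0.074% in Ezh2 -/- libraries (n = 4), 1.42 ± 0.093% in Ezh2 +/- libraries (n = 4) and 1.34 ± 0.071% in Ezh2 +/+ libraries (n = 5). Per length, the highest level was that of Atp5b, which encodes the catalytic beta subunit of ATP synthase, at 1103 CPM per kb averaged over the 29 libraries. The alpha subunit Atp5a1 followed at 631 CPM per kb, the c subunit Atp5g3 at 518 CPM per kb and the cytochrome oxidase subunit Cox4i1 at 485 CPM per kb. The lowest level per length was that of Ndufab1, the acyl carrier protein that also sits in complex I, at 13.9 CPM per kb. The members lay on 19 chromosomes, with at most 6 on any chromosome and 3 on the X chromosome.

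Genes with a tissue-restricted counterpart were represented mostly by the ubiquitous form. Among the cytochrome oxidase isoforms, Cox4i1, Cox6a1, Cox6b1, Cox7a2 and Cox8a were members, while Cox4i2, Cox6a2, Cox7a1 and Cox8c averaged 0.506, 0.0262, 0.136 and 0.0008 CPM. The exception was Cox6b2, known as a testis form, at 56.5 CPM, where its sister Cox6b1 averaged 178.3 CPM. The hypoxia-linked gene Cox4i2 was below the threshold in each group and is given without a test. It averaged 1.31 ± 0.655 CPM in V617F Ezh2 -/- libraries and 0.0345 ± 0.0097 CPM in Ezh2 -/- libraries, 0.524 ± 0.393 CPM in V617F Ezh2 +/- libraries and 0.0578 ± 0.0607 CPM in Ezh2 +/- libraries, and 0.766 ± 1.04 CPM in V617F Ezh2 +/+ libraries and 0.0491 ± 0.0643 CPM in Ezh2 +/+ libraries (SD, n = 6, 4, 6, 4, 4 and 5). The ranges of the Ezh2 +/+ pair overlapped (0.0629 to 2.30 CPM with V617F and 0 to 0.151 CPM without), as did those of the Ezh2 +/- pair. The levels without V617F are near the 0.0505 to 0.095 CPM that 3 counts are worth in a library, and Cox4i2 was chosen for description after its values were seen. The members nearest to the threshold were Ndufb4 (7.63 CPM) and Ndufab1 (11.1 CPM), and the nearest gene below it was the ATP synthase subunit Atp5l (1.23 CPM). Ndufs5 is uncertain, since its 14.1 CPM stood beside 15.3 CPM for the pseudogene Ndufs5-ps, and near-identical copies can share reads. Ndufa4 is counted with complex I by its symbol, although its product is now assigned to complex IV.

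Promoters were searched for cores of the factors classically tied to these genes, because the members moved together in the comparisons that follow. RefSeq promoters of assembly GRCm38.p6, 250 bases before to 50 after the start, were matched for 65 of the 77 members (70 promoters), and both strands were read. The NRF1 core GCGCATGCG occurred in 10% of member promoters, against 3.37% of promoters of the tested genes and 1.75% of all 32851 promoters. The ETS core CCGGAAG, bound by GABPA, occurred in 22.9%, against 16.6% and 8.86%. The YY1 core AAGATGGCG occurred in 10% (against 2.76% and 1.4%) and the estrogen-related receptor (ERR) core TCAAGGTCA in 2.86% (against 0.266% and 0.423%). The member shares rest on few promoters: 7 of 70 for NRF1, 16 for ETS, 7 for YY1 and 2 for ERR. At least 1 core was found in 27 genes and 2 different cores in 5, which were Atp5j, Atp5k, Cox6a1, Sdhd and Uqcr11. A match is a description and not a binding site. The 4 promoters shown belong to genes with large differences in the sections that follow, 3 of them with 2 different cores, and capitals mark the cores on either strand. They lie on the minus strand of GRCm38.p6, at chr10:80406772-80407071 (Uqcr11), chr5:108434350-108434649 (Atp5k), chr9:50603800-50604099 (Sdhd) and chr13:73328433-73328732 (Ndufs6).
Uqcr11: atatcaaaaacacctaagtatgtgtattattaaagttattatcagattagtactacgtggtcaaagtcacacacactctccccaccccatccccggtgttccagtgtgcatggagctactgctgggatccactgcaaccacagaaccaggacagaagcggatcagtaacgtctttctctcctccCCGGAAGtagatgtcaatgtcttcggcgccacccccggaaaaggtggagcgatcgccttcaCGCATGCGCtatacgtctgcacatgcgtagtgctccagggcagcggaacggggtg
Atp5k: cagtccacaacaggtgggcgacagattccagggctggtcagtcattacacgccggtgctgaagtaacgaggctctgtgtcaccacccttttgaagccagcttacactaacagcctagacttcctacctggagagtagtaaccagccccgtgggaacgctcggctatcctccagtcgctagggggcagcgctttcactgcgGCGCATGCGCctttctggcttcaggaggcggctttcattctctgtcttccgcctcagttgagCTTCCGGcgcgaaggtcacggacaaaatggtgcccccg
Sdhd: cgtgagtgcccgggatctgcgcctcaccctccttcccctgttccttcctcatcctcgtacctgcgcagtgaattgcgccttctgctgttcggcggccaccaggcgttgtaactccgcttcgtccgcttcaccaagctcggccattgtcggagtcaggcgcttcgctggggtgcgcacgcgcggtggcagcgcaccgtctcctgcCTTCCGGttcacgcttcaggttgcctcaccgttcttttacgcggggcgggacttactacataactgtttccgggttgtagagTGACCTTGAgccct
Ndufs6: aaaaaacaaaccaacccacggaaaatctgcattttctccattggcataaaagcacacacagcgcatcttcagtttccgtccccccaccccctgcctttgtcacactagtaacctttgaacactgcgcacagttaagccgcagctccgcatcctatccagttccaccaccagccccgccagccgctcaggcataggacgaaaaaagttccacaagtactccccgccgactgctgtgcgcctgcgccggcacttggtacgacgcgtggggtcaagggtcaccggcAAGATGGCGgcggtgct
The Uqcr11 promoter holds the ETS core and, across its start, the NRF1 core. The Atp5k promoter holds the NRF1 core on both strands, overlapping, and the ETS core. The Sdhd promoter holds the ETS and ERR cores, and the Ndufs6 promoter the YY1 core, which starts at position 33 after the start.

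With V617F, loss of both Ezh2 alleles went with lower RNA for most of the chain. Of the 77 members, 50 fell and 0 rose in V617F Ezh2 -/- MEPs against V617F Ezh2 +/+ MEPs (edgeR's quasi-likelihood test, Benjamini-Hochberg adjusted p under 0.05), where 26.6% of all 13928 genes tested were called and 13.6% were lower. The falls were small: the 50 called members lay between -0.41 and -0.15 on the log2 scale, and the median over all 77 was -0.24, against -0.0034 for all genes tested. In 24 members every V617F Ezh2 -/- library lay below every V617F Ezh2 +/+ library, as in 8.11% of all genes tested. The calls covered all complexes, with 22 of 37 in complex I, 3 of 4 in complex II, 7 of 8 in complex III, 7 of 12 in complex IV and 11 of 16 in complex V. The count rests in part on single libraries: it was 8 without V617F Ezh2 +/+ replicate 4, 26 and 29 without replicates 3 and 2 of that group, and 20, 30 and 29 without V617F Ezh2 -/- replicates 2, 3 and 4. It was 22 in female libraries alone and 30 when only these groups were fitted, and all called members were lower in each of these fits.

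The members without overlap between these groups included Ndufa3, Ndufa4, Ndufa9, Ndufa11, Ndufb8, Ndufb9, Ndufc2, Ndufs6, Ndufs7 and Ndufs8 of complex I, Uqcr11, Uqcrb, Uqcrc2, Uqcrh and Uqcrq of complex III, Cox4i1, Cox6b1 and Cox6c of complex IV, and Atp5h, Atp5j2, Atp5k, Atp5mpl and Atp5o of complex V. None was a complex II gene. The median log2 fold change was -0.23 in complex I, -0.20 in complex II, -0.26 in complex III, -0.26 in complex IV and -0.24 in complex V, so the complexes differed little in their medians.

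Complex III held the largest fall. Uqcr11, a small subunit of the bc1 complex, had 71.8, 83.5 and 89.3 normalised CPM (lowest, median and highest of 6) in V617F Ezh2 -/- MEPs, against 94.7, 104.5, 112.5 and 123.7 in V617F Ezh2 +/+ MEPs. The groups did not overlap. The log2 fold change was -0.41 ± 0.10 (SE, adjusted p = 0.00527), a ratio of 0.75. Its adjusted p stayed between 0.00095 and 0.0384 in the 18 alternative fits.

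In complex I the called members included 6 of the 7 core subunits that carry the electron path, and 16 of the 30 accessory subunits. Ndufs6, an accessory subunit of the NADH-oxidising arm, had 52.0, 55.5 and 57.9 normalised CPM (lowest, median and highest) in V617F Ezh2 -/- MEPs, against 61.4, 70.7, 74.6 and 77.7 in V617F Ezh2 +/+ MEPs. Every library of the double mutants was below every V617F Ezh2 +/+ library, and the fall was 0.35 on the log2 scale (log2 fold change -0.35 ± 0.09, adjusted p = 0.00526). In complex II, Sdhb, the iron-sulfur subunit, had 111.5, 123.8 and 136.0 normalised CPM, against 126.7, 150.0, 152.5 and 171.1. Here V617F Ezh2 +/+ replicate 1 lay inside the range of the double mutants, and the log2 fold change was -0.27 ± 0.10 (adjusted p = 0.0377). The Sdhb call ended without V617F Ezh2 +/+ replicate 2, 3 or 4 (adjusted p = 0.0811, 0.0778 and 0.208) and without V617F Ezh2 -/- replicate 1, 2, 3 or 4 (0.0574, 0.098, 0.0635 and 0.0753). Sdhc, a membrane anchor of complex II named after its values were seen, had a log2 fold change of -0.10 and did not pass (adjusted p = 0.325).

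In complex IV, Cox6b1, which lies where oxidase monomers meet, had 143.5, 158.8 and 163.3 normalised CPM (lowest, median and highest) in V617F Ezh2 -/- MEPs, against 171.0, 197.5, 189.3 and 203.7 in V617F Ezh2 +/+ MEPs. The groups did not overlap, and the log2 fold change was -0.30 ± 0.07 (adjusted p = 0.00229, and at most 0.016 in 18 alternative fits). Cox4i1, a regulatory subunit, had 267.5, 302.0 and 312.9 normalised CPM, against 328.8, 351.4, 360.8 and 394.8. It fell by 0.28 on the log2 scale (SE 0.08, adjusted p = 0.0121, but 0.0755 without V617F Ezh2 +/+ replicate 4). Cox5a had the largest change of the complex, with 119.9, 131.6 and 148.7 normalised CPM, against 138.7, 162.0, 200.4 and 175.6. These ranges overlapped, the log2 fold change was -0.30 ± 0.11 (adjusted p = 0.0356), and the call ended without V617F Ezh2 +/+ replicate 2, 3 or 4 (0.0691, 0.112 and 0.128) and without V617F Ezh2 -/- replicate 1, 2, 3 or 4 (0.0508, 0.0897, 0.0699 and 0.0709).

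In complex V, Atp5j2, the f subunit in the membrane part, had 101.6, 109.6 and 114.4 normalised CPM (lowest, median and highest) in V617F Ezh2 -/- MEPs, against 124.9, 136.6, 139.6 and 158.5 in V617F Ezh2 +/+ MEPs. The groups did not overlap. Its log2 fold change was -0.38 ± 0.09 (adjusted p = 0.00242, and at most 0.0223 in the alternatives). Of the 5 subunits of the catalytic F1 part, 2 fell and 3 did not pass, and of the other 11 subunits 9 fell. The c subunit, which forms the rotating ring, is encoded by 3 genes whose mature proteins are alike. Atp5g1 fell (log2 fold change -0.31, adjusted p = 0.0398, and 0.195 without V617F Ezh2 +/+ replicate 4), while Atp5g3 (-0.24, adjusted p = 0.0579) and Atp5g2 (-0.01, adjusted p = 0.892) did not pass. The Atp5g1 call also ended without V617F Ezh2 +/+ replicates 2 and 3 (0.0719 and 0.0864) and without V617F Ezh2 -/- replicates 1 to 4 (0.0534, 0.0994, 0.0622 and 0.0891).

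In the same comparison 0 of 9 MEP, 0 of 8 erythroblast, 0 of 8 tested megakaryocyte, 0 of 10 granulocyte, 0 of 6 monocyte and dendritic and 0 of 6 stem cell markers passed edgeR's test (4 MEP markers and 0 of the others had an unadjusted p under 0.05). Of 6 T and NK cell markers 1 rose and 1 fell, and 4 of 6 B cell markers rose. Within the V617F Ezh2 -/- group the lowest respiratory chain mean belonged to replicate 2 (-0.23). It had megakaryocyte, stem cell and granulocyte sums of 913.6, 172.6 and 1337 CPM. The highest mean belonged to replicate 6 (-0.02), with 765.1, 90.2 and 130.8 CPM. In the V617F Ezh2 +/+ group replicate 1 had the lowest mean (-0.04), with 1046, 210.7 and 1225 CPM. Replicates 2, 3 and 4 of that group had means of 0.09, 0.16 and 0.23. Their megakaryocyte sums were 440.9, 209 and 466.4 CPM, and their stem cell sums 91.7, 37.5 and 62.2 CPM. Erythroblast sums were 806.5 CPM in replicate 1 of that group and 1044, 1167 and 982.8 CPM in its replicates 2, 3 and 4. For V617F Ezh2 -/- replicates 2 and 6 they were 898.5 and 1082 CPM. The part of these markers in the result was not tested.

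The V617F contrast in Ezh2 -/- MEPs, which compares MEPs with and without V617F where Ezh2 is lost, also gave mostly lower RNA. In V617F Ezh2 -/- MEPs against Ezh2 -/- MEPs 52 of 77 members fell and 0 rose, where 41.6% of all genes were called and 22.5% were lower. The median over the members was -0.25, against -0.03 for all genes tested, and in 34 members all V617F libraries lay below all libraries without it, as in 18.8% of all genes. By complex, 24 of 37, 4 of 4, 7 of 8, 5 of 12 and 12 of 16 members fell in complexes I to V. This contrast uses the same V617F Ezh2 -/- libraries as the previous one, so the counts are not independent. The count was 18 without Ezh2 -/- replicate 3, 34 without V617F Ezh2 -/- replicate 2 and 34 in female libraries alone. Markers of other cells moved as well: 8 of 8 megakaryocyte, 10 of 10 granulocyte and 5 of 6 stem cell markers rose, 4 of 9 MEP markers and 2 of 8 erythroblast markers fell, and 2 MEP markers rose. Of 6 markers each, 1 monocyte and dendritic marker fell, 1 T and NK cell marker rose and 3 fell, and 1 B cell marker rose and 1 fell. Their part in the result was not tested.

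In complex I, 17 of the 30 accessory subunits fell. Ndufv1, the NADH-binding subunit, had 136.6, 155.4 and 172.1 normalised CPM (lowest, median and highest) in V617F Ezh2 -/- MEPs, against 202.2, 204.6, 220.9 and 195.7 in Ezh2 -/- MEPs. The groups did not overlap, and the log2 fold change was -0.40 ± 0.08 (adjusted p = 0.000982). Ndufa11, an accessory subunit of the membrane arm, had 36.1, 39.8 and 41.1 normalised CPM, against 48.9, 46.4, 55.99 and 47.2. It fell by 0.35 on the log2 scale (SE 0.07, adjusted p = 0.000686). Both calls held in 18 alternative fits, with adjusted p of at most 0.00789 and 0.00861.

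All 4 genes of complex II fell, and in each the groups did not overlap. Sdha, the flavoprotein that oxidises succinate, had 414.1, 437.1 and 465.1 normalised CPM in V617F Ezh2 -/- MEPs, against 518.3, 512.3, 512.9 and 508.0 in Ezh2 -/- MEPs (log2 fold change -0.21 ± 0.05, adjusted p = 0.00424). Sdhb had 111.5, 123.8 and 136.0 normalised CPM, against 152.8, 141.0, 183.9 and 158.9 (log2 fold change -0.36 ± 0.10, adjusted p = 0.00625, and 0.0569 without Ezh2 -/- replicate 3). In complex III, Uqcrc1, a core protein of the matrix side, had 286.3, 321.5 and 354.5 normalised CPM, against 419.9, 410.6, 467.7 and 406.7 (log2 fold change -0.37 ± 0.09, adjusted p = 0.00438). The groups did not overlap for this gene either.

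In complex IV, Cox6a1 had 149.1, 168.6 and 174.7 normalised CPM in V617F Ezh2 -/- MEPs, against 215.7, 199.2, 241.7 and 198.4 in Ezh2 -/- MEPs (log2 fold change -0.35 ± 0.10, adjusted p = 0.00825, and 0.0674 without Ezh2 -/- replicate 3). The groups did not overlap. Of the c-subunit genes, Atp5g1 had 104.0, 120.6 and 132.7 normalised CPM, against 162.1, 148.8, 176.7 and 165.1, the largest fall of any member here (log2 fold change -0.42 ± 0.11, adjusted p = 0.00514). Atp5g3 had 264.4, 306.4 and 338.8 normalised CPM, against 396.2, 391.5, 458.7 and 402.4 (log2 fold change -0.42 ± 0.09, adjusted p = 0.002). Atp5g2 passed with -0.15 (adjusted p = 0.0461), and its call ended in 14 of 18 alternatives. Atp5b, the member with the highest level and named after its values were seen, had 1572, 1774 and 1936 normalised CPM, against 2328, 2272, 2515 and 2223 (log2 fold change -0.37, adjusted p = 0.00236).

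Without V617F, few members passed the test when Ezh2 was lost, and those that did were higher. In Ezh2 -/- MEPs against Ezh2 +/+ MEPs 5 of 77 members rose and 0 fell, where 23.7% of all genes were called and 11.5% were higher, so the share of members called was below the background. The median over the members was 0.13, against -0.01 for all genes tested, and 72 members had a fold change above 0. The 5 were the complex I accessory subunits Ndufa8 (0.28 ± 0.09, adjusted p = 0.0209), Ndufb10 (0.28 ± 0.09, adjusted p = 0.0244) and Ndufs4 (0.22 ± 0.07, adjusted p = 0.0221) and the c-subunit genes Atp5g3 (0.29 ± 0.10, adjusted p = 0.0287) and Atp5g2 (0.17 ± 0.06, adjusted p = 0.0395), all log2 fold changes ± SE from edgeR. Atp5g3 had 396.2, 391.5, 458.7 and 402.4 normalised CPM in Ezh2 -/- MEPs, against 317.0, 367.1, 336.9, 367.2 and 305.5 in Ezh2 +/+ MEPs. It and Ndufb10 were the members without overlap between the groups (2 of 77, against 11.5% of all genes). The count was 0 without Ezh2 +/+ replicate 1, 0 without Ezh2 -/- replicate 3, 13 without Ezh2 +/+ replicate 4 and 3 without Ezh2 +/+ replicate 5. It was 0 in female libraries alone, 2 without the 3 libraries that stood apart and 3 when only these groups were fitted. In this contrast 4 of 6 stem cell, 4 of 6 T and NK cell, 3 of 6 monocyte and dendritic and 1 of 8 megakaryocyte markers fell, and 1 erythroblast marker rose and 1 fell. The part of these markers in the result was not tested.

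V617F with both Ezh2 alleles present also gave few calls. In V617F Ezh2 +/+ MEPs against Ezh2 +/+ MEPs 4 of 77 members rose and 0 fell, where 23.6% of all genes were called and 9.73% were higher. The median was 0.11, against 0.01 for all genes tested, and 70 members had a fold change above 0. The 4 were Atp5md, a membrane subunit of complex V (log2 fold change 0.30 ± 0.10, adjusted p = 0.0326), Cox7c of complex IV (0.29 ± 0.09, adjusted p = 0.0185), Ndufs4 (0.20 ± 0.07, adjusted p = 0.0369) and Uqcrh, the hinge protein of complex III (0.17 ± 0.06, adjusted p = 0.0456). Cox7c had 74.1, 82.5, 83.2 and 91.7 normalised CPM in V617F Ezh2 +/+ MEPs, against 59.4, 64.4, 68.7, 77.1 and 67.7 in Ezh2 +/+ MEPs, so a single Ezh2 +/+ library reached into the V617F range. The count was 0 without Ezh2 +/+ replicate 1 or V617F Ezh2 +/+ replicate 3, 1 without V617F Ezh2 +/+ replicate 4, 2 without Ezh2 +/+ replicate 2 or 3 and 12 without Ezh2 +/+ replicate 4. It was 0 in female libraries alone and 10 by DESeq2. In this contrast 6 of 8 megakaryocyte, 9 of 10 granulocyte and 2 of 6 stem cell markers rose, 5 of 6 monocyte and dendritic, 5 of 6 T and NK cell, 1 of 8 erythroblast and 1 of 6 B cell markers fell, and 1 MEP marker rose and 1 fell. The part of these markers was not tested.

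Loss of a single Ezh2 allele gave no called member on either background. In Ezh2 +/- MEPs against Ezh2 +/+ MEPs edgeR called 0 of 77 members (0.0144% of all genes), DESeq2 called 0, and 9 had an unadjusted p under 0.05, as did 2.76% of all genes. All 77 fold changes were above 0, with a median of 0.12 on the log2 scale. In V617F Ezh2 +/- MEPs against V617F Ezh2 +/+ MEPs edgeR called 0 (0.00718% of all genes), DESeq2 called 0, and 2 had an unadjusted p under 0.05, as did 6.33% of all genes. There 75 fold changes were below 0, with a median of -0.09. In V617F Ezh2 +/- MEPs against Ezh2 +/- MEPs edgeR and DESeq2 called 0 (9.87% of all genes by edgeR), 5 had an unadjusted p under 0.05, as did 23.8% of all genes, and the median was -0.10. There 4 of 8 megakaryocyte and 7 of 10 granulocyte markers rose, and 5 of 8 erythroblast, 5 of 6 monocyte and dendritic, 5 of 6 T and NK cell and 1 of 6 B cell markers fell. The part of these markers was not tested. The V617F Ezh2 +/- group was the most variable, with library means from -0.20 to 0.22. Its replicates 1, 5 and 6, with means of -0.20, -0.02 and -0.05, had megakaryocyte sums of 1000, 1128 and 855.6 CPM, and its replicates 2, 3 and 4, with means of 0.22, 0.10 and 0.07, had sums of 121.9, 456.0 and 399.8 CPM. Erythroblast sums were 845.8, 756.1 and 983.9 CPM in replicates 1, 5 and 6 and 1217, 1041 and 1069 CPM in replicates 2, 3 and 4. The part of these differences in the absence of calls was not tested.

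The difference between the V617F effects with and without Ezh2 was tested directly, as the log2 fold change of V617F in Ezh2 -/- minus that in Ezh2 +/+. It was below 0 for 76 of 77 members, and 49 passed the test, all below 0, where 19.1% of all genes were called and 10.6% were lower. The median was -0.38 for the members, against 0.03 for all genes tested. By complex 23 of 37, 2 of 4, 8 of 8, 4 of 12 and 12 of 16 members passed. The largest was Uqcrq, a small subunit of complex III, at -0.60 ± 0.16 (adjusted p = 0.0201). It had 70.6, 79.0 and 87.6 normalised CPM (lowest, median and highest) in V617F Ezh2 -/- MEPs, against 95.9, 84.0, 115.4 and 106.8 in Ezh2 -/- MEPs. With both Ezh2 alleles it had 88.0, 97.9, 104.7 and 116.8 normalised CPM in V617F MEPs, against 69.8, 85.4, 88.8, 97.3 and 82.8 without V617F. The fall with V617F in Ezh2 -/- MEPs passed the test (-0.33, adjusted p = 0.0197), and the difference with V617F in Ezh2 +/+ MEPs did not (0.26, adjusted p = 0.0904), with overlapping ranges.

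Other members with a called difference of effects were Ndufa5 (-0.57 ± 0.17, adjusted p = 0.0275), Atp5g3 (-0.54 ± 0.13, adjusted p = 0.0176), Cox7a2 (-0.50 ± 0.14, adjusted p = 0.0247), Atp5k, the e subunit of complex V (-0.49 ± 0.12, adjusted p = 0.0176), Uqcr10 (-0.48 ± 0.13, adjusted p = 0.02) and Sdhd, the second anchor of complex II (-0.46 ± 0.13, adjusted p = 0.0267). These calls depend on few libraries. Without Ezh2 -/- replicate 3, which had the highest respiratory chain mean of all libraries (0.27), 1 of 77 members passed and the 6 adjusted p-values were 0.0734, 0.051, 0.068, 0.0526, 0.0572 and 0.0657, in the same order. The count was 4 and 24 without Ezh2 +/+ replicates 1 and 5, 28 and 18 without V617F Ezh2 +/+ replicates 3 and 4, 31 without V617F Ezh2 -/- replicate 2, 32 without the 3 libraries that stood apart and 0 in female libraries alone. The median over the members kept its sign in all 27 alternatives, between -0.43 and -0.30. The call for Uqcrq ended without Ezh2 +/+ replicate 1 (0.0517) and without Ezh2 -/- replicate 3 (0.0577). For Ezh2 +/- the same difference gave 0 called members by edgeR (0% of all genes) and by DESeq2, 26 members with an unadjusted p under 0.05 (6.73% of all genes) and a median of -0.20. Markers of other cells also differed in the V617F effect between Ezh2 -/- and Ezh2 +/+ MEPs: the difference was called above 0 for 3 of 6 T and NK cell, 2 of 6 monocyte and dendritic, 1 of 8 megakaryocyte, 1 of 6 B cell and 1 of 6 stem cell markers. No marker was called below 0, and the part of these markers was not tested.

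In 12 of the 77 members no comparison gave a call: Ndufa2, Ndufa6, Ndufab1, Ndufb3, Ndufb4, Ndufb11, Ndufs5 and Ndufv3 of complex I, Cox6b2, Cox7a2l and Cox8a of complex IV and Atp5e of complex V. Cox7a2l is better known as a factor that joins complexes III and IV into supercomplexes than as a subunit. It had 97.1, 100.1 and 109.5 normalised CPM (lowest, median and highest) in V617F Ezh2 -/- MEPs, against 111.3, 96.7, 87.3 and 99.8 in V617F Ezh2 +/+ MEPs and 91.1, 93.0, 95.7 and 89.5 in Ezh2 -/- MEPs. Its log2 fold changes were 0.00 ± 0.07 (adjusted p = 0.998) and 0.09 ± 0.07 (adjusted p = 0.269), although every double-mutant library lay above every Ezh2 -/- library. Cox6b2 had 44.4, 53.3 and 60.1 normalised CPM in V617F Ezh2 -/- MEPs, against 49.5, 60.5, 61.1 and 52.6 in V617F Ezh2 +/+ MEPs. Its log2 fold change was -0.10 ± 0.12 (adjusted p = 0.556), and the ranges overlapped.

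Ndufa2, an accessory subunit of complex I, was chosen for description after its values were seen, because its V617F Ezh2 -/- libraries fell into separate levels. Replicates 2, 3 and 4 had 80.6, 88.1 and 87.2 normalised CPM and replicates 1, 5 and 6 had 60.3, 57.2 and 60.2, against 65.6, 68.0, 67.4 and 71.1 in V617F Ezh2 +/+ MEPs. The highest of the other libraries was Ezh2 -/- replicate 3, at 73.5 normalised CPM. Replicates 2, 3 and 4 also had the highest granulocyte sums of their group (1337, 1410 and 1164 CPM, against 686.2, 432.4 and 130.8 CPM in replicates 1, 5 and 6). Their stem cell sums (172.6, 125.8 and 180.4 CPM) were its highest too. So were their monocyte and dendritic sums (123.6, 72.85 and 72.79 CPM) and B cell sums (26.98, 32.19 and 24.16 CPM), but the B cell sum of replicate 6 was close, at 23.65 CPM. Other sums did not separate these libraries. Replicate 6 had a megakaryocyte sum of 765.1 CPM, against 694.4 CPM in replicate 3. For T and NK cells replicate 1 had 63.49 CPM, against 60.22 CPM in replicate 3. In the V617F Ezh2 +/- group Ndufa2 reached at most 72.6 normalised CPM, although replicate 6 had a granulocyte sum of 1795 CPM. The part of these markers in the Ndufa2 level was not tested.

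Other nuclear genes of mitochondria were counted in the same way. In V617F Ezh2 -/- MEPs against V617F Ezh2 +/+ MEPs 15 of 51 assembly factors, 4 of 17 genes of electron carriers and ubiquinone synthesis, 10 of 19 tricarboxylic acid (TCA) cycle genes, 16 of 32 protein import genes, 34 of 78 mitochondrial ribosomal protein genes and 6 of 16 genes of mitochondrial DNA maintenance fell, where 13.6% of all genes did. Among these lists only the glycerol-3-phosphate dehydrogenase Gpd2 (0.12, adjusted p = 0.0475) and the pyruvate carboxylase Pcx (1.04, adjusted p = 1.4e-06) rose. Named falls were the complex IV assembly factors Coa5 (-0.38, adjusted p = 0.000905) and Surf1 (-0.22, adjusted p = 0.00205), the import subunit Timm29 (-0.35, adjusted p = 0.000155), the ribosomal protein Mrpl16 (-0.48, adjusted p = 0.00215) and the mitochondrial transcription factor Tfb2m (-0.26, adjusted p = 0.0047). Of 13 tested regulators of mitochondrial biogenesis, Myc (0.49, adjusted p = 0.00289) and Perm1 (0.81, adjusted p = 0.0287) rose. Esrra, which encodes the receptor ERR-alpha, fell (-0.21, adjusted p = 0.0061). The share of regulators that rose (15.4%) was near that of all genes (13%), and the share that fell (7.69%) was below it (13.6%).

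In V617F Ezh2 -/- MEPs against Ezh2 -/- MEPs the counts of falls were 16 of 51 assembly factors, 10 of 17 carrier genes, 16 of 19 TCA cycle genes, 17 of 32 import genes, 47 of 78 ribosomal protein genes and 4 of 16 maintenance genes, where 22.5% of all genes fell. The maintenance genes, at 25%, were near that share. The assembly factor Cmc1 rose (0.24, adjusted p = 0.0135), and it was the only gene of these lists to do so. The heme A synthase Cox15 (-0.35, adjusted p = 0.000189), the ubiquinone oxidoreductase Etfdh (-0.32, adjusted p = 0.000138) and the mitochondrial DNA polymerase Polg (-0.35, adjusted p = 0.00182) fell. Of the regulators, Myc (0.51, adjusted p = 0.00187) and Gabpb1 (0.18, adjusted p = 0.0341) rose, and Esrra, Nfe2l2 and Hcfc1 were among the 4 that fell. Thus 15.4% of the regulators rose and 30.8% fell, where 19.1% and 22.5% of all genes did. In Ezh2 -/- MEPs against Ezh2 +/+ MEPs 7 of 51 assembly factors, 6 of 17 carrier genes, 3 of 19 TCA cycle genes, 6 of 32 import genes, 9 of 78 ribosomal protein genes and 2 of 16 maintenance genes rose, where 11.5% of all genes did. The shares of assembly factors (13.7%), ribosomal protein genes (11.5%) and maintenance genes (12.5%) were near it. An assembly factor (Cmc1) and a maintenance gene (Polg2) fell. Cytochrome c, the carrier between complexes III and IV, is encoded by Cycs. Its V617F effect was lower in Ezh2 -/- than in Ezh2 +/+ MEPs by 0.71 on the log2 scale (difference -0.71 ± 0.19, adjusted p = 0.0211). Calls of this difference depend on the fit: over all genes there were 2663, and 128 to 4633 in the 27 alternatives. None of the 13 subunits encoded by mitochondrial DNA was found by symbol among the genes counted, so they were not analysed here.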

How the data were processed

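RNA-seq of sorted MEPs (230000 cells per sample, per the labels' protocols) gave 1 file per library of whole-number counts per gene, deposited by the authors without normalisation. Reads were aligned with STAR to mm9, per the submitters' processing notes; the counting tool, its strand setting and versions were not given in the sources used here. Gene IDs were named from a RefSeq table of GRCm38.p6, which named 18772 of 18834 genes, and no coordinates of the files were used.

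Genes with enough counts were kept (filterByExpr, minimum count 10 and minimum total 15), leaving 13928. All 29 libraries were fitted together by edgeR 4.0.16's quasi-likelihood test in R 4.3.3, with TMM factors (0.95 to 1.093) and terms for group and sex, and p-values were Benjamini-Hochberg adjusted over all genes tested, with a threshold of 0.05. Values called normalised CPM are TMM-normalised. Plain CPM is by file total. This holds for the threshold for members, the genes below it, levels per kb, means over the 29 libraries and marker sums. Library means used log2(normalised CPM + 0.5). A floor of 3 counts equals 0.0505 to 0.095 CPM, and floors cover counting error only. Alternatives were RLE scaling, no low-count filter, DESeq2 1.42.0, no sex term, female libraries only, a replicate block, the compared groups only, and leaving out single libraries or the 3 that stood apart.

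The genes named were, by rule, Ezh2, Jak2 and, within each complex, comparison and direction, the called member with the lowest adjusted p and that with the largest fold change, every called member where 5 or fewer were called, the isoform sets, the members nearest to the CPM threshold, and from each other list at most the 3 called genes per direction with the lowest adjusted p. Genes without values of a test, listed by overlap or for lack of a call, and those said to be chosen after their values were seen fall outside it. The members and lists were chosen with earlier results of these data known. The values of 1 member are not reported here.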

Additional observations from a re-analysis of the deposited data

Results flagged for a closer look

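Values of 33 members, Ezh2, Jak2 and the library mean over the members were looked at within each of the 6 genotypes, 216 groups of values in all. In 3 of them a single library stood apart from its group, where chance gives about 1 in 20. Atp5g2 had 33.17 normalised CPM in Ezh2 +/- replicate 1, against 37.94 to 38.63 in the other libraries of the group. Atp5g3 had 458.7 normalised CPM in Ezh2 -/- replicate 3, against 391.5 to 402.4 in the others. Ndufs4 had 58.58 normalised CPM in V617F Ezh2 -/- replicate 6, against 54.39 to 55.66 in the others.

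The V617F effect differed between Ezh2 -/- and Ezh2 +/+ MEPs in 49 members by the test of that difference in edgeR. The difference in log2 fold change was -0.60 for Uqcrq, -0.57 for Ndufa5, -0.54 for Atp5g3, -0.50 for Cox7a2, -0.49 for Atp5k, -0.48 for Uqcr10, -0.46 for Sdhd, -0.42 for Ndufa11 and -0.37 for Cox6b1. Without Ezh2 -/- replicate 3, which is also the library that stood apart for Atp5g3, 1 member passed.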

How the results depend on the processing

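No called result changed direction, and the median of the members kept its sign in all alternatives of every comparison. Counts of called members moved. For Ezh2 -/- against Ezh2 +/+ MEPs (5) the count was 0 in female libraries alone, 3 in the compared groups alone, 2 without the 3 libraries that stood apart and 0 to 13 when single libraries were left out. For V617F Ezh2 -/- against V617F Ezh2 +/+ MEPs (50) it was 22 in female libraries alone, 30 in the compared groups alone, 47 without the 3 libraries and 8 to 57. For V617F Ezh2 -/- against Ezh2 -/- MEPs (52) it was 34 in female libraries alone, 49 without the 3 libraries and 18 to 58. For the difference of V617F effects in Ezh2 -/- (49) it was 0 in female libraries alone, 32 without the 3 libraries and 1 to 66. For V617F Ezh2 +/+ against Ezh2 +/+ MEPs (4) it was 7 with RLE scaling, 10 by DESeq2, 0 in female libraries alone, 7 with the replicate block, 2 without the 3 libraries and 0 to 12. For V617F Ezh2 +/- against Ezh2 +/- MEPs (0) it was 2 with the replicate block and 0 to 1. The cause was not tested. Fits of female libraries or compared groups alone hold fewer samples. Replicate numbers were not used to pair the samples in the main fit. Correlations of same-numbered libraries ran from -0.441 to 0.795, and in no comparison were all above 0.1. In Ezh2 +/- against Ezh2 +/+ MEPs they were 0.426, -0.441, 0.37 and 0.795 (replicates 1, 2, 4 and 5). In V617F Ezh2 +/- against V617F Ezh2 +/+ MEPs they were 0.686, -0.063, 0.369 and 0.418 (replicates 1 to 4). Whether some numbers share a batch was not tested. Among the named genes 461 of the alternative calls were lost. Members averaged at least 5 CPM in libraries of 31.6 M counts or more, far above the floor of 3 counts, and comparisons rest on 4 to 6 libraries per group.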
